A study of Homo sapiens with 12 samples.

Results

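In MDA-MB-231 breast cancer cells with a hairpin against RIPOR3, most genes raised at least 2-fold by hypoxia in control cells also rose, but less. Among the gene lists examined, the targets of the hypoxia-inducible factors (HIF) showed this most widely. For the few genes repressed at least 2-fold, the result depended on the line in which they were chosen. Of genes that fell in both lines and differed between them in the test below, 855 fell less and 95 more in knockdown cells. The quantity described here is the interaction of hairpin and oxygen: for each gene, the log2 change with hypoxia in RIPOR3-knockdown cells minus the log2 change with hypoxia in control cells. A negative interaction means a weaker rise or a deeper fall in the knockdown cells, and a positive one a stronger rise or a shallower fall. It used 12 of the 12 libraries of the series, and 3624 of 15648 genes tested, out of 24641 in the table, passed an adjusted p of 0.05 in edgeR's quasi-likelihood test.

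The cells are a human triple-negative breast cancer line with mesenchymal features. One line expressed a control short hairpin RNA (shControl), the other 1 hairpin against RIPOR3 (shRIPOR3), and both were kept in normoxia or in 1% O2 with 5% CO2 for 24 hours, which gave 4 groups of 3 libraries: normoxic shControl, hypoxic shControl, normoxic shRIPOR3 and hypoxic shRIPOR3. All cells were grown at 37 °C in medium with 10% fetal bovine serum, and stranded mRNA libraries were prepared from 2 µg of RNA. The study asked what RIPOR3 does in breast tumour growth and spread, and its title links the RIPOR3 transcript to hypoxia and to m6A RNA methylation. The labels do not say whether the lines were clones or pools, nor whether replicates were separate cultures. The p-values therefore rest on the spread among these libraries alone, and that spread may be technical.

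At low oxygen the prolyl hydroxylases EGLN1 to EGLN3 lose activity, the alpha subunits HIF1A and EPAS1 (HIF-2 alpha) escape VHL-mediated degradation, and each pairs with ARNT to bind the core sequence ACGTG or GCGTG near its target genes. The targets raise glucose uptake and glycolysis, blood vessel growth, collagen modification and mitophagy, while ribosome production and cell division usually slow down. RIPOR3 belongs to a small family with RIPOR1 and RIPOR2, and its own function is less well known.

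Library totals were 14750734 to 30032858 counts in normoxia and 31781324 to 52526813 in hypoxia, so depth moved with oxygen. After thinning all libraries to the smallest total, 2671 genes were called in the interaction described below, against 3624 at full depth. Without the scaling factors (TMM, 0.952 to 1.05) the median change in hypoxia shifted by 0.11 in shControl and 0.123 in shRIPOR3, and the share of calls that were rises went from 50.0% to 61.6% and from 45.3% to 63.4%. The median interaction shifted by 0.0124, so the changes below are relative to the TMM scale. Mesenchymal markers were present (SPARC, the lowest of 7, was at least 70.4 CPM, counts scaled to library size), while of 7 epithelial and luminal genes ESR1, PGR, CDH1, ESRP1 and GRHL2 reached at most 1.57 CPM, ERBB3 3.13 CPM and EPCAM 7.63 CPM. RIPOR3 itself was scarce: the normoxic shControl libraries held 7, 3 and 7 counts, the hypoxic shControl libraries 33, 18 and 30, the normoxic shRIPOR3 libraries 0, 0 and 1, and the hypoxic shRIPOR3 libraries 9, 3 and 11. On library totals without TMM factors, hypoxia over normoxia was 3.15 (95% exact interval 1.85 to 5.67, counting error only) in shControl and 11.3 (1.84 to 466) in shRIPOR3. These intervals overlap, and a difference in the RIPOR3 response was not detectable at this depth (interaction adjusted p = 0.326).

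Of the 3624 genes called, which are 23.2% of those tested, 1705 (10.9%) had a positive and 1919 (12.3%) a negative interaction. Which side was larger depended on the settings. Positive and negative calls numbered 2005 and 1689 with median-of-ratios scaling, 1796 and 1395 in DESeq2, and 1714 and 1880 in limma-voom. Negative calls prevailed below 100 CPM and positive ones above it, as given below. Most differences were small, with a median absolute log2 value of 0.32 over the calls. Among interactions of at least 2-fold the sides were unequal: 158 genes were negative (1.01% of genes tested) and 33 positive (0.211%). No minimum CPM was set for these counts, and whether the inequality holds at each level was not tested. Levels in bulk RNA do not separate fewer cells with a transcript from less of it per cell.

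Induced genes had a damped response. Across the 12658 genes with a mean of at least 1 CPM, the 2 hypoxia responses, which share no library but share the scaling of all 12 libraries and the depth difference between oxygen levels, had a Pearson r of 0.84 across genes, and the log2 changes had an SD of 0.54 in shControl and 0.41 in shRIPOR3. In that set 650 genes rose at least 2-fold in shControl, by a median log2 of 1.28. The same genes had a median of 0.85 in shRIPOR3, and 621 of them had a smaller value there, although 585 were still called as risen. Genes chosen by their response in one line tend to look weaker when read in the other, so the choice was also made the other way round. The 241 genes that rose at least 2-fold in shRIPOR3, with a median of 1.21, had a larger median of 1.47 in shControl. For repression the 2 choices did not point the same way. The 49 genes that fell at least 2-fold in shControl had medians of -1.11 there and -0.63 in shRIPOR3, while the 7 that did so in shRIPOR3 had medians of -1.06 there and -0.68 in shControl, with smaller falls in shControl for 6 of the 7.

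**Figure D1:**
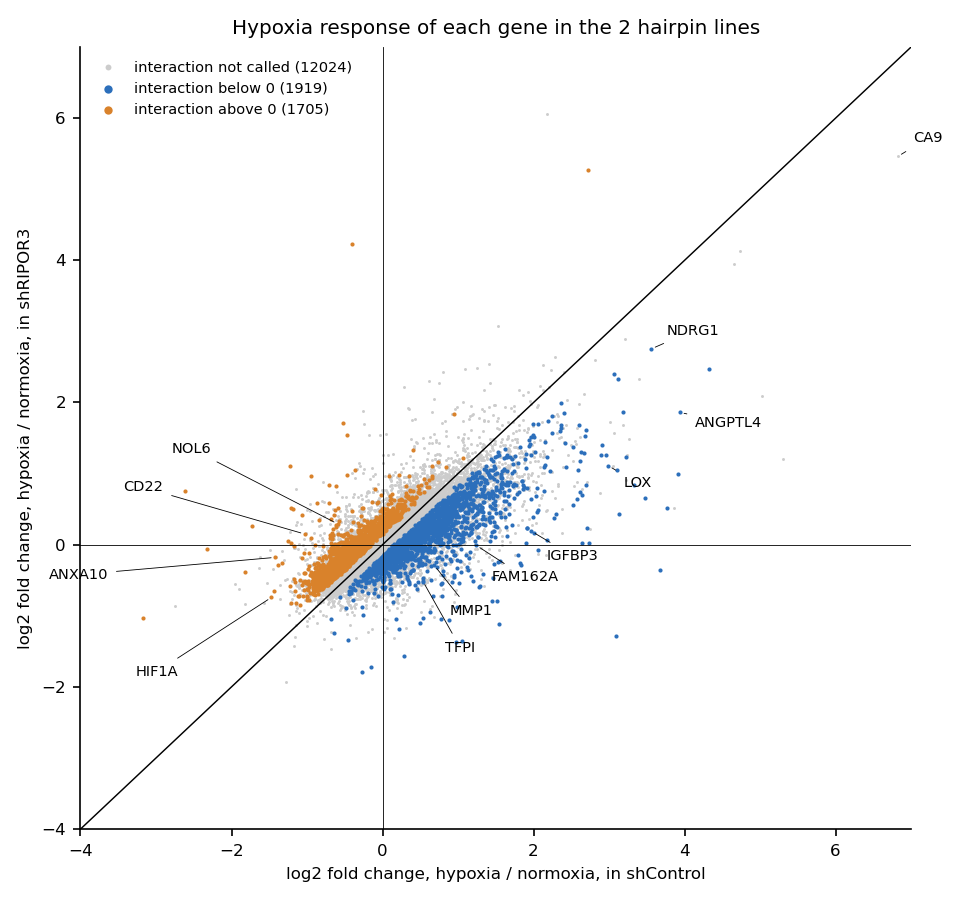
Each point is a gene, with its log2 fold change of hypoxia over normoxia in shControl on the horizontal axis and in shRIPOR3 on the vertical axis. The 1919 blue points have a called interaction below 0 and the 1705 orange points one above 0, and the diagonal marks equal responses, which strongly induced genes such as LOX, ANGPTL4 and NDRG1 lie below.

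The 2 alpha subunits of HIF responded to hypoxia in opposite directions, and both responses were smaller in the knockdown cells. HIF1A (chromosome 14, 61695513 to 61748259, plus strand, GRCh38) was at 180, 180 and 180 CPM in the normoxic shControl libraries and at 63.9, 67.7 and 63.2 in hypoxia. In shRIPOR3 it was at 100, 102 and 107 CPM in normoxia and at 59.8, 62.6 and 62.7 in hypoxia. The normoxic knockdown libraries were all below the normoxic controls, while the hypoxic libraries of both lines stood close together. The transcript fell by 1.47 on the log2 scale in shControl and by 0.74 in shRIPOR3, an interaction of 0.73 ± 0.0549 (SE, adjusted p = 1.49e-09 in edgeR's quasi-likelihood test).

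EPAS1 was at 7.71, 8.14 and 7.87 CPM in normoxic shControl and at 17.8, 16.7 and 17.5 in hypoxic shControl. In shRIPOR3 the values were 5.09, 5.94 and 5.84 CPM in normoxia and 8.12, 8.02 and 7.85 in hypoxia. The hypoxic knockdown libraries overlapped with the normoxic controls. The interaction was -0.65 ± 0.107 (edgeR adjusted p = 0.000107). EGLN1, the main oxygen sensor and itself a HIF target, rose from 9.67 ± 0.61 to 34.3 ± 1.02 CPM in shControl (mean ± SD, n = 3) and from 9.6 ± 0.765 to 25 ± 0.758 in shRIPOR3 (interaction -0.44 ± 0.092). Of the 14 subunits and oxygen-sensing genes tested, HIF1A had a positive call, 3 had a negative call and 10 had none (28.6% called, near the 23.2% of all genes). The third negative call, VHL (-0.19 ± 0.0698, edgeR adjusted p = 0.0468), was lost in 16 of 21 alternatives. ARNT, the shared partner, had an interaction of 0.02 ± 0.0633, and HIF1AN, the asparaginyl hydroxylase, of -0.01 ± 0.0584.

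Among 40 HIF targets, 35 had a negative and 1 a positive interaction call (90.0%, against 23.2% of all genes), with a median of -0.54 where all genes had -0.02. Their median response was 1.56 in shControl and 0.95 in shRIPOR3. In shControl 38 of the 40 rose and 1 fell, where 64.8% of all genes were called, 32.4% as rises. In shRIPOR3 34 rose and 2 fell, where 55.6% of all genes were called, 25.2% as rises and 30.4% as falls. The negative count stayed between 33 and 35 over 21 alternatives of scaling, filter, tool, replicate block, depth and left-out library. A test against a 1.2-fold change left 20 negative calls, and an adjusted p of 0.01 left 33. The 4 uncalled members, named here because they are few, were CA9, EGLN3, ANKRD37 and PPP1R3C. CA9, a carbonic anhydrase of the cell surface that regulates pH, had 4, 2 and 3 counts in normoxic shControl and 1, 1 and 0 in normoxic shRIPOR3, so that its interaction of -1.36 ± 0.996 is imprecise. Its hypoxic level was 15.6 ± 0.729 CPM in shControl and 1.49 ± 0.163 in shRIPOR3. ANKRD37 rose by 2.04 and 1.94, a difference of -0.10 ± 0.158.

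**Figure D2:**
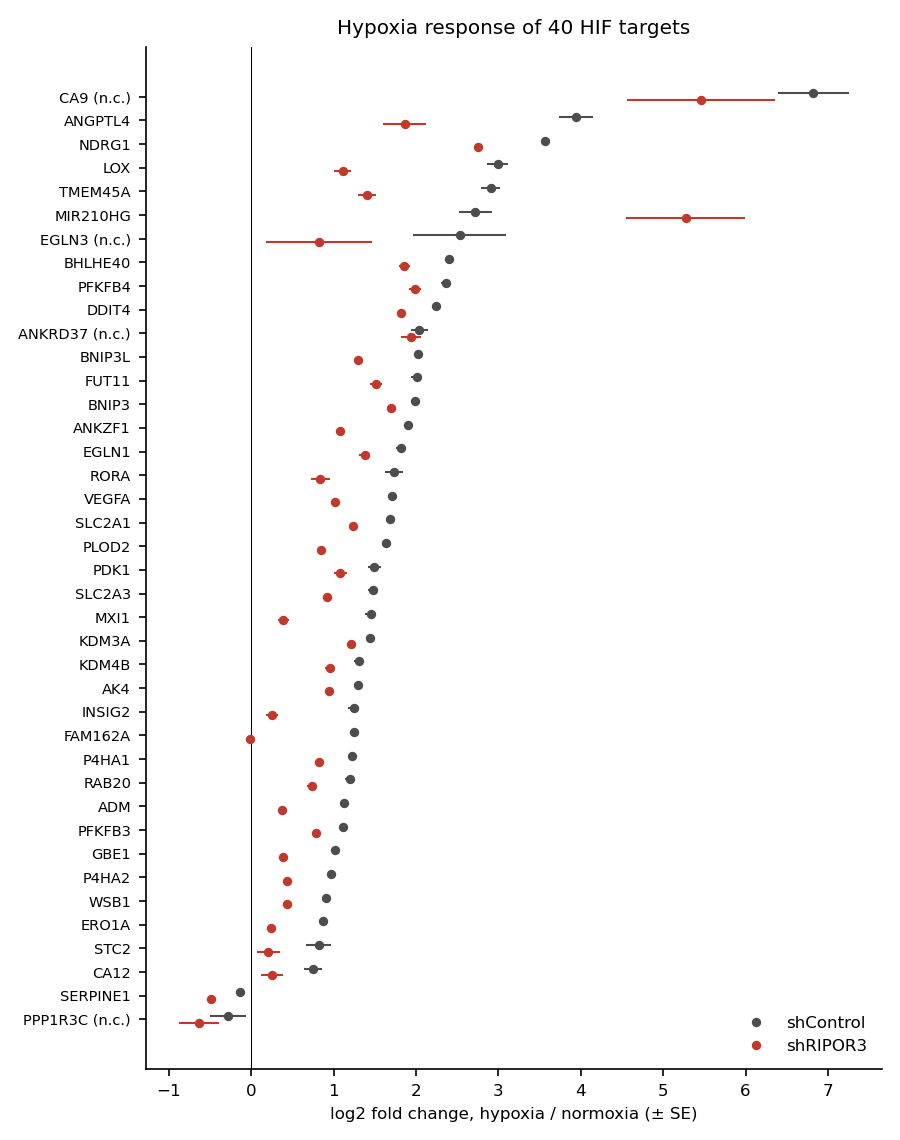
Log2 fold change of hypoxia over normoxia with its SE for the 40 HIF targets, in shControl (grey) and shRIPOR3 (red), ordered by the shControl value; n.c. marks the 4 targets whose interaction was not called. The red point lies to the left of the grey one for every target except MIR210HG.

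The promoters of 3 attenuated HIF-linked genes, of IGFBP3, which nearly lost its response, and of NOL6, which turned round, are shown so that the response can be read beside the sequence in which HIF could bind. Each stretch holds the 250 bases before the RefSeq start of the gene (GRCh38.p14), 5′ to 3′ on the gene's strand. Capitals mark each match to the HIF core ACGTG or GCGTG or to its reverse complement CACGT or CACGC.
FAM162A, chr3:122383932-122384181, plus strand: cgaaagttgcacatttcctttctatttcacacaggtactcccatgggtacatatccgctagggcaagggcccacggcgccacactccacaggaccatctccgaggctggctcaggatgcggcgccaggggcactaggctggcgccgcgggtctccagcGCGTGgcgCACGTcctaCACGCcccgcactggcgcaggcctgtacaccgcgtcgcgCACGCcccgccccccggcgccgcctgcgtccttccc
ANGPTL4, chr19:8363905-8364154, plus strand: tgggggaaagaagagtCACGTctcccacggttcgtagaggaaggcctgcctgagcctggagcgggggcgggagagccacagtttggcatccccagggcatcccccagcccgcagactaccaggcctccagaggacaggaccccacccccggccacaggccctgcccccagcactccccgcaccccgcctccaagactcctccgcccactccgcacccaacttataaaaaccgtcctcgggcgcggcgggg
PLOD2, chr3:146161185-146161434, minus strand: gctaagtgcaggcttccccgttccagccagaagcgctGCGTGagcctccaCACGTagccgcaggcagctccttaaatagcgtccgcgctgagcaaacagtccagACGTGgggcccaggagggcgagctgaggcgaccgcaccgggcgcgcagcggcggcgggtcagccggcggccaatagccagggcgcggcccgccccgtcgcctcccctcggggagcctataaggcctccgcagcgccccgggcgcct
IGFBP3, chr7:45921273-45921522, minus strand: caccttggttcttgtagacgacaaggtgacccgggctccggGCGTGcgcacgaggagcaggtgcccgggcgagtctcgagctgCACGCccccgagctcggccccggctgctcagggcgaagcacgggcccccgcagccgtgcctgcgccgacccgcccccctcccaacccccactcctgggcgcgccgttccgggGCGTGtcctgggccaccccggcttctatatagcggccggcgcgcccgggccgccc
NOL6, chr9:33473925-33474174, minus strand: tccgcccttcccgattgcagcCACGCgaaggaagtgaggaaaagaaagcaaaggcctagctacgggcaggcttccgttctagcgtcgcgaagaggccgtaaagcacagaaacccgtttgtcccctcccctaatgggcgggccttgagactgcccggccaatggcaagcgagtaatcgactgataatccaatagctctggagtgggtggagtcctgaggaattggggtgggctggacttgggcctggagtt
FAM162A holds 4 matches, PLOD2 and IGFBP3 3 each, and ANGPTL4 and NOL6 1 each. The core in either form and on either strand was found in 26 of the 33 HIF targets with a RefSeq promoter (78.8%), in 57.1% of the 10770 tested genes with one and in 43.1% of all 27305 promoters. The stricter form ACGTG was found in 60.6% of those HIF targets and in 23.5% of tested genes. The E-box CACGTG, which reads the same on both strands and contains ACGTG, was found in 24.2% and 8.79%. In the ribosome biogenesis list, where 20 of 30 genes had a positive call, 18 of 25 promoters (72.0%) held the core in either form, 32.0% held ACGTG and 8.0% the E-box. Over the other lists the share with either form ran from 12.5% (luminal breast genes, 8 promoters) to 95.2% (endoplasmic reticulum folding, 21 promoters). It was 41.7% for extracellular matrix and crosslinking and 83.3% for aminoacyl-tRNA synthetases. A match only describes the letters in this window.

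FAM162A, a HIF-induced mitochondrial protein linked to cell death, lost its response. It was at 47.6, 50.6 and 48.1 CPM in normoxic shControl and at 118, 115 and 112 in hypoxic shControl. In shRIPOR3 it was at 77.3, 76 and 80.3 CPM in normoxia and at 77.9, 74.8 and 79.4 in hypoxia. The knockdown libraries of both oxygen levels overlapped and lay between the 2 control groups. The interaction was -1.25 ± 0.0566 (edgeR adjusted p = 3.14e-13), with a change of -0.01 ± 0.0391 in shRIPOR3. NDRG1, a stress-response gene that is among the most strongly induced HIF targets in many cells, kept a large response: it rose 11.8-fold in shControl, from 167 ± 5 to 1971 ± 30.7 CPM, and 6.75-fold in shRIPOR3, from 71.6 ± 1.02 to 483 ± 11.2 CPM (interaction -0.81 ± 0.0542).

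Attenuation covered the different arms of the HIF programme. VEGFA, the main angiogenic growth factor, rose from 101 ± 2.07 to 331 ± 8.4 CPM in shControl and from 81.9 ± 3.57 to 166 ± 0.339 in shRIPOR3 (interaction -0.70 ± 0.054). PLOD2, which hydroxylates collagen lysines, rose from 69.9 ± 0.747 to 216 ± 5.21 and from 40.4 ± 1.41 to 72.8 ± 1.65 CPM (-0.79 ± 0.0554). BNIP3L, a mitophagy receptor, had an interaction of -0.72 ± 0.059. ADM, the vasodilator peptide adrenomedullin, was already at 77 ± 1.53 CPM in normoxic shRIPOR3, above the 73.1 ± 2.14 CPM of hypoxic shControl, and its interaction was -0.74 ± 0.0625.

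MIR210HG, the host transcript of the hypoxia-induced microRNA miR-210, was the 1 HIF target with a positive call, from very low normoxic counts in the knockdown cells. The normoxic shRIPOR3 libraries held 1, 1 and 2 counts and the hypoxic ones 139, 72 and 156, against 19, 12 and 31 and then 232, 197 and 239 in shControl. On library totals without TMM factors, the ratio of hypoxia over normoxia was 45.1 (95% exact interval 17.5 to 166) in shRIPOR3 and 7.12 (5.48 to 9.39) in shControl. The interaction was 2.56 ± 0.749 (edgeR adjusted p = 0.00196). In CPM the rise was smaller in shRIPOR3, by 2.78. Over all calls only 29 genes (0.80%) had opposite signs on the 2 scales.

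Glycolysis followed the HIF targets, with which the list shares members. Of 22 enzymes and transporters, 14 had a negative and 1 a positive call (68.2%), and the median response was 0.85 in shControl and 0.52 in shRIPOR3. PGK1, which makes ATP in the lower part of glycolysis, rose from 402 ± 6.56 to 957 ± 18.7 CPM in shControl and from 399 ± 9.63 to 542 ± 6.96 in shRIPOR3, so that the lines were close in normoxia and apart in hypoxia (interaction -0.81 ± 0.0502, edgeR adjusted p = 6.83e-11). HK2, the inducible hexokinase that traps glucose, had an interaction of -0.68 ± 0.0539, ENO2, an enolase, of -0.68 ± 0.0701, and SLC2A1, the glucose transporter GLUT1, of -0.45 ± 0.0563. The positive call, PFKM (0.16), is named because it was the only one, and no glycolysis gene had a positive call in 13 of 21 alternatives.

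The naming rule takes the 12 largest negative interactions that held in every leave-one-out fit and reached 5 CPM in a group. Several were almost complete losses of induction. IGFBP3 (chromosome 7, 45912245 to 45921874, minus strand), a secreted binding protein for insulin-like growth factors, was at 47.1, 46.2 and 45.8 CPM in normoxic shControl and at 178, 184 and 185 in hypoxic shControl. In shRIPOR3 it was at 65.4, 68.3 and 64.7 CPM and then at 74.4, 75.3 and 76.4. It rose 3.92-fold and 1.14-fold, an interaction of -1.78 ± 0.0537 (edgeR adjusted p = 6.63e-17), and no hypoxic knockdown library came near a hypoxic control.

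ANGPTL4, a secreted inhibitor of lipoprotein lipase induced by fasting and hypoxia, kept part of its rise. Its values were 0.831, 0.631 and 0.539 CPM in normoxic and 9.74, 10.1 and 11 CPM in hypoxic shControl, against 0.33, 0.457 and 0.49 CPM and then 1.84, 1.46 and 1.5 in shRIPOR3. It rose 15.3-fold in control and 3.63-fold in knockdown cells (interaction -2.08 ± 0.336, adjusted p = 0.000154 in edgeR). MAP3K7CL, a short relative of the kinase TAK1 without a kinase domain, rose from 1.74 ± 0.243 to 8.45 ± 0.24 CPM in shControl and from 1.99 ± 0.371 to 2.54 ± 0.126 in shRIPOR3 (-1.89 ± 0.201). TMEM45A, a membrane protein, rose in both, with an interaction of -1.51 ± 0.158, and TCP11L2 had one of -1.37 ± 0.22.

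A second shape combined a higher normoxic with a lower or similar hypoxic level. LOX, the lysyl oxidase that crosslinks collagen and elastin, was at 3.88, 1.75 and 2.91 CPM in normoxic shControl and at 24.4, 23.8 and 23.7 in hypoxic shControl. In shRIPOR3 it started higher, at 6.01, 6.31 and 6.86 CPM, and ended lower, at 14.9, 13.3 and 13.6. On the log2 scale shRIPOR3 minus shControl was thus 1.10 for LOX in normoxia and -0.78 in hypoxia, an interaction of -1.88 ± 0.167 (edgeR adjusted p = 1.46e-08). NOG, a secreted antagonist of bone morphogenetic proteins, behaved alike, with knockdown differences of 1.06 and -0.29 (interaction -1.35 ± 0.0859). DUSP1, a phosphatase that switches off MAP kinases, was at 26.1 ± 1.72 and 63.9 ± 8.24 CPM in normoxic shControl and shRIPOR3 and at 81.5 ± 4.75 and 76.3 ± 1.32 in hypoxia, where the difference between the lines did not pass the test (adjusted p = 0.15 in edgeR).

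The other 4 were noncoding transcripts: AL365181.3 (-1.95 ± 0.237), LINC01293 (-1.70 ± 0.285), HIF1A-AS2 (-1.57 ± 0.142) and LUCAT1 (-1.43 ± 0.161). HIF1A-AS2 rose from 4.29 ± 0.487 to 17.5 ± 1.9 CPM in shControl and from 8.57 ± 0.988 to 11.8 ± 0.374 in shRIPOR3, while HIF1A fell in both lines. The 2 genes overlap on opposite strands, as do the antisense genes AL365181.3 and LUCAT1 with their neighbours, and the strand setting of the counting is not given in the sources used here, so their reads may not be separated fully.

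**Figure D3:**
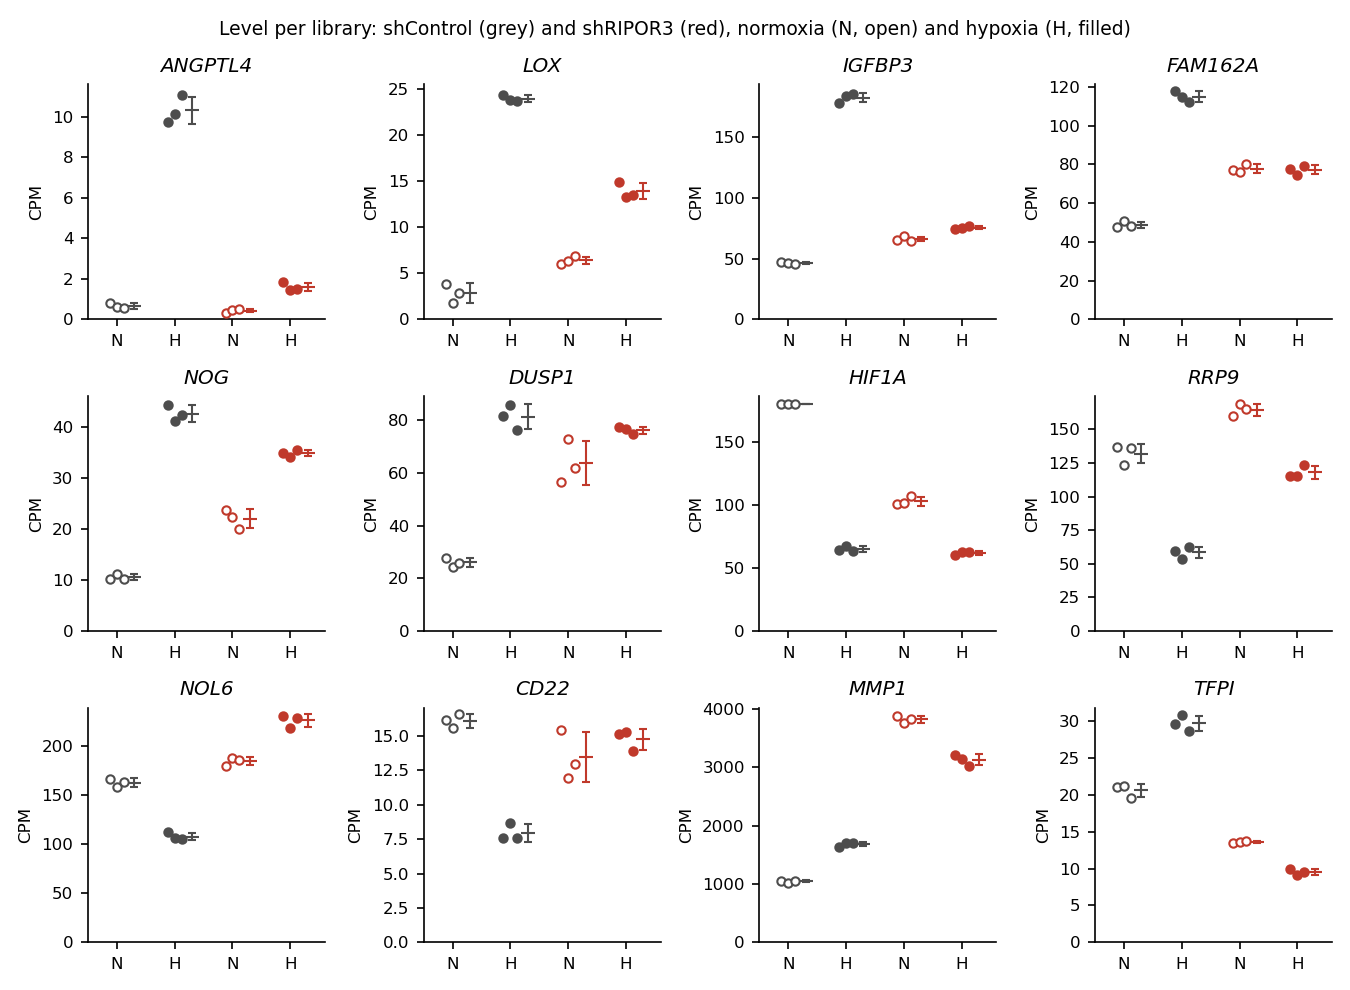
CPM of 12 genes in each library, with the mean and SD of each group of 3 beside the points, for shControl (grey) and shRIPOR3 (red) in normoxia (N, open) and hypoxia (H, filled). IGFBP3 and ANGPTL4 are high only in hypoxic shControl, LOX and NOG differ in opposite directions at the 2 oxygen levels, and CD22 and NOL6 are lowest in hypoxic shControl.

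Matrix genes were attenuated beyond the collagen-modifying enzymes. Of 33 extracellular matrix and crosslinking genes tested, 19 had a negative and 1 a positive call (60.6%; the positive one was lost in 13 of 21 alternatives), with a median interaction of -0.36 and median responses of 1.07 and 0.73. FN1, the adhesive matrix protein fibronectin, had an interaction of -0.45 ± 0.0523, COL13A1, a membrane-bound collagen, of -0.73 ± 0.0676, COL12A1, a fibril-associated collagen, of -0.47 ± 0.055, and P4HA2, a collagen prolyl hydroxylase, of -0.54 ± 0.0635. In this list 29 genes rose in shControl (32.4% of all genes did) and 29 in shRIPOR3 (25.2% did). The difference thus lay in size. Among 13 integrins, the receptors for matrix, 6 had a negative and none a positive call (46.2%, against 23.2% of all genes). The negative count ran from 4 to 7 over 21 alternatives, and a test against a 1.2-fold change left 3. ITGA5, which pairs with ITGB1 to bind fibronectin, rose from 65.1 ± 4.64 to 121 ± 2.27 CPM in shControl and from 52.7 ± 1.23 to 71.7 ± 1.81 in shRIPOR3. Of 19 matrix proteases and inhibitors 9 had a negative and 2 a positive call (57.9%), with 5 negative calls in DESeq2. PLAT, the tissue plasminogen activator, had an interaction of -0.91 ± 0.0584.

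Growth factor signalling and its early-response genes showed the same sign. In the list of EGFR family and ERK feedback genes 10 of 26 had a negative and 2 a positive call (46.2%). EGFR rose from 208 ± 4.46 to 619 ± 12.7 CPM in shControl and from 205 ± 6.86 to 408 ± 5.41 in shRIPOR3 (interaction -0.58 ± 0.052). ERRFI1, which encodes an inhibitor of EGFR, rose from 147 ± 4.64 to 490 ± 11.9 and from 83.9 ± 1.43 to 152 ± 1.38 CPM (-0.88 ± 0.0522, edgeR adjusted p = 3.4e-11). Immediate-early genes had 11 negative calls and 1 positive call among 22 (54.5%, against 23.2% of all genes). The negative ones included ATF3 (-0.88 ± 0.105), MAFF (-0.61 ± 0.0637) and JUN (-0.32 ± 0.0535). The AP-1 subunit FOSL1 was on the other side (0.29 ± 0.0574). The list of YAP and TAZ targets, read-outs of mechanical signalling, includes the regulators YAP1, WWTR1, TEAD1 and TEAD4 themselves. Of its 20 genes, 13 had a negative and 2 a positive call (75.0%). The smallest p belonged to the matricellular protein CTGF (-0.63 ± 0.0515), followed by CRIM1 (-0.45 ± 0.0521), CYR61 (-0.43 ± 0.0501) and the coagulation initiator F3 (-0.59 ± 0.0869). The count of positive calls fell to 0 in thinned libraries and without normoxic shRIPOR3 replicate 2 or hypoxic shRIPOR3 replicate 3. Against a 1.2-fold change 4 negative calls of this list and 2 of the immediate-early genes were left. In normoxia 12 of the 20 genes were higher and 4 lower in shRIPOR3 than in shControl, where 25.1% of all genes were higher. In hypoxia 11 were higher and 7 lower, where 30.7% of all genes were higher.

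Of 26 genes of cholesterol synthesis and other SREBP targets, 16 had a negative and 1 a positive interaction call (65.4%, median -0.33). Their median response was 0.32 in shControl and -0.02 in shRIPOR3. In shControl 20 rose and 4 fell, where 32.4% of all genes rose and 32.4% fell. In shRIPOR3 8 rose and 10 fell, where 25.2% of all genes rose and 30.4% fell. HMGCS1, which makes the precursor of mevalonate, was at 66.9, 65.4 and 68.4 CPM in normoxic and 109, 110 and 113 CPM in hypoxic shControl, but at 42.4, 44.9 and 42.2 and then 43.8, 45 and 44 CPM in shRIPOR3. All knockdown libraries lay below all control libraries, and the 2 knockdown groups overlapped. The interaction was -0.69 ± 0.0552 (edgeR adjusted p = 4.44e-09). INSIG1, a sterol sensor that holds back SREBP, had an interaction of -0.88 ± 0.0858, MSMO1, a sterol oxidase, of -0.78 ± 0.0952, and IDI1, an isomerase of the pathway, of -0.57 ± 0.0682. In hypoxia 23 of the 26 genes were lower in shRIPOR3 than in shControl, a comparison in which 61.9% of all genes were called and 31.2% were lower. In normoxia 17 were lower, where 45.7% of all genes were called and 20.6% were lower.

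Some smaller lists gave negative calls without any positive one, where 12.3% of all genes had a negative call. The circadian list had 7 of 18 (38.9%), with the HIF-induced repressors BHLHE40 (-0.54 ± 0.0789) and BHLHE41 (-0.95 ± 0.165), the clock repressor CRY1 (-0.50 ± 0.0623) and the nuclear receptor RORA (-0.89 ± 0.159). Jumonji histone demethylases, oxygen-dependent enzymes of which many are hypoxia-induced, had 9 of 18 (50.0%), with KDM3A at -0.24 ± 0.0512 and KDM5B at -0.42 ± 0.0718. A test against a 1.2-fold change left 0 of these 9 calls and 5 of the 7 circadian ones. Among targets of the stress factor ATF4, 10 of 24 were negative (41.7%), and 1 positive call appeared without hypoxic shControl replicate 3. Of the 24, 18 were already higher in normoxic shRIPOR3 (25.1% of all genes were). The CDK inhibitors and D and G cyclins were mixed, with 5 negative and 2 positive calls among 13 (53.8%), the latter CDK4 (0.40 ± 0.0615) and CCND3 (0.24), of which CCND3 is named because the positive calls were few. CDKN1A, the cell-cycle inhibitor p21, was at 19.4 CPM in normoxic and 32.8 CPM in hypoxic shControl and at 11.8 and 12.6 CPM in shRIPOR3 (interaction -0.66 ± 0.089), and CCNG2, an inhibitory cyclin, had an interaction of -1.04 ± 0.129.

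**Figure D4:**
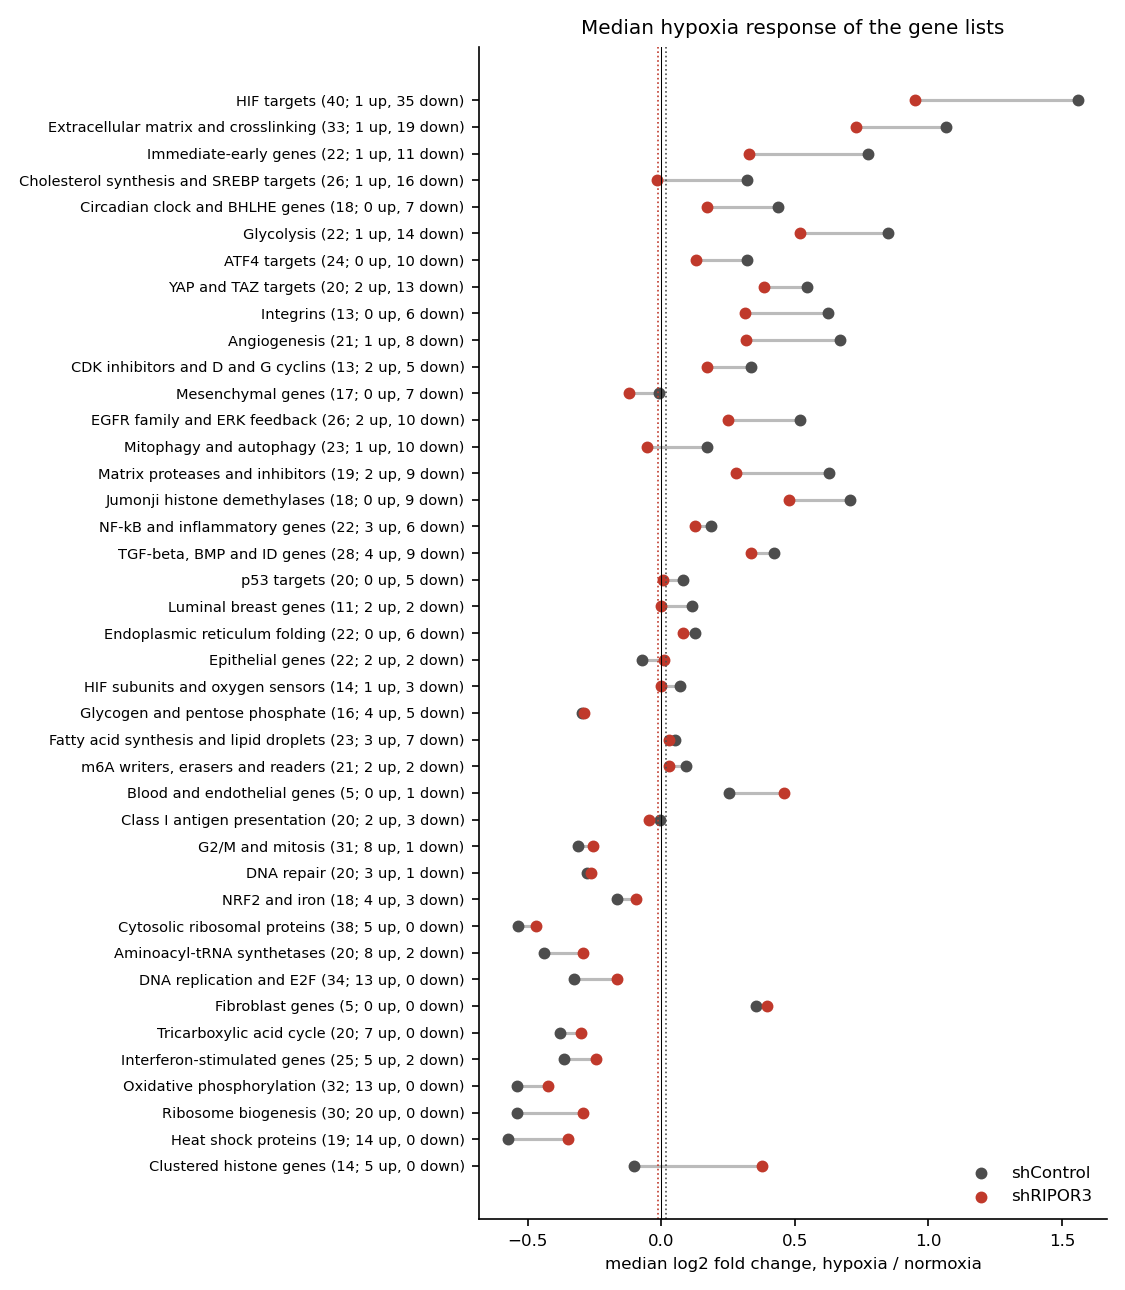
Median log2 fold change of hypoxia over normoxia for the gene lists reported, in shControl (grey) and shRIPOR3 (red), ordered by the median interaction; labels give the members tested and how many had a positive (up) or negative (down) interaction call, and dotted lines mark the medians of all genes tested. The red point lies to the left for HIF targets (0.95 against 1.56) and to the right for ribosome biogenesis (-0.29 against -0.54).

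Of the 1705 genes with a positive interaction, 1380 (80.9%) fell in shControl. Of these, 855 also fell in shRIPOR3, 446 had no call there and 79 rose, while 120 of the 1705 rose in both lines. Among the 1919 genes with a negative interaction, 95 fell in both lines and 235 fell in shRIPOR3 without a call in shControl. Of 30 ribosome biogenesis factors, 20 had a positive and none a negative call (66.7%), and the median response was -0.54 in shControl and -0.29 in shRIPOR3. RRP9, a small nucleolar RNP subunit, was at 136, 124 and 136 CPM in normoxic and 59.1, 53.8 and 62.4 CPM in hypoxic shControl, and at 160, 169 and 165 and then 115, 115 and 123 CPM in shRIPOR3. Its interaction was 0.70 ± 0.068 (edgeR adjusted p = 8.94e-08), and the hypoxic knockdown libraries approached the normoxic controls. BYSL, a factor for the small ribosomal subunit, fell in shControl from 170 ± 1.87 to 120 ± 8.36 CPM and was at 196 ± 3.73 and 198 ± 7.53 CPM in shRIPOR3 (0.53 ± 0.0611). RRP12, an export factor, had an interaction of 0.50 ± 0.0602 and BOP1, a factor for the large subunit, of 0.51 ± 0.0677. The 38 cytosolic ribosomal proteins, by contrast, had 5 positive and no negative calls (13.2%). Over all genes 10.9% had a positive call, and among the 2086 genes above 100 CPM 514 had one. The count for ribosomal proteins ranged from 2 without normoxic shControl replicate 3 to 13 without hypoxic shControl replicate 3.

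Heat shock proteins, which fold other proteins, had 14 positive and no negative calls among 19 (73.7%), with median responses of -0.57 and -0.35. The constitutive chaperone HSPA8 fell from 6517 ± 76.5 to 3605 ± 135 CPM in shControl and from 5888 ± 95.6 to 4339 ± 39.7 in shRIPOR3 (interaction 0.41 ± 0.0535, edgeR adjusted p = 5.19e-06). FKBP4, an HSP90 cochaperone, had an interaction of 0.47 ± 0.049 and the HSP40 protein DNAJB1 of 0.41 ± 0.0495. Mitochondrial respiration moved the same way by less: 13 of 32 oxidative phosphorylation genes were positive and none negative (40.6%, median 0.14), among them CYC1 of complex III (0.34 ± 0.0537), and 7 of 20 genes of the tricarboxylic acid cycle were, among them IDH3A (0.32 ± 0.055). The first count was 7 without a filter on low counts and 8 without normoxic shControl replicate 3, hypoxic shControl replicate 1 or hypoxic shRIPOR3 replicate 3, and the second was 3 in thinned libraries and 11 without hypoxic shControl replicate 3. Against a 1.2-fold change 0 positive calls were left in either list, and 4 of the 14 heat shock calls.

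Of 34 DNA replication genes, 13 were positive and none negative (38.2%). A test against a 1.2-fold change left 1 of the 13 calls. MCM5, a subunit of the replicative helicase, fell from 180 ± 5.2 to 135 ± 4.61 CPM in shControl and was at 147 ± 4.58 and 147 ± 5.36 CPM in shRIPOR3 (interaction 0.42 ± 0.056). Of 31 mitotic genes 8 were positive and 1 negative (29.0%), near the share of all genes. CDC20, an activator of the anaphase-promoting complex, fell from 114 ± 6.12 to 67.5 ± 1.64 CPM in shControl and from 116 ± 4.47 to 105 ± 0.422 in shRIPOR3 (0.61 ± 0.0577, edgeR adjusted p = 5.77e-08). The mitotic kinase PLK1 reached almost the same hypoxic level in both lines, 169 ± 1.57 and 171 ± 0.762 CPM, from a lower normoxic level in shRIPOR3 (0.48 ± 0.0498).

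Among the 12 largest positive interactions under the naming rule, the leading 3 have limits. AC217777.1, which could not be placed in GENCODE 29, held 214, 184 and 44 counts in the normoxic shControl libraries, so the replicates disagreed (3.37 ± 0.73). SERF1B, which has a near-identical copy, was at 23, 79.5 and 8.51 CPM in the same libraries and between 5.69 and 6.78 CPM in all others, and its interaction of 2.26 ± 0.692 lost its call in limma-voom (adjusted p = 0.14). MIR210HG rests on 4 counts in the normoxic shRIPOR3 libraries. The next, ANXA10, an annexin that binds membranes, was at 4.63, 5.19 and 5.03 CPM in normoxic and 1.75, 1.99 and 1.79 CPM in hypoxic shControl, against 6.47, 5.94 and 5.77 and then 4.94, 5.5 and 5.52 CPM in shRIPOR3. It fell in shControl and did not pass the test in shRIPOR3 (-0.18 ± 0.0921), an interaction of 1.24 ± 0.151 (edgeR adjusted p = 2.08e-06).

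CD22, best known as a B-cell receptor, was at 16.2, 15.6 and 16.6 CPM in normoxic shControl and at 7.55, 8.67 and 7.62 in hypoxic shControl, while the shRIPOR3 libraries lay between 11.9 and 15.5 CPM at both oxygen levels (interaction 1.18 ± 0.112, edgeR adjusted p = 5.46e-08). Summed blood and endothelial genes, of which CD22 is no member, ran from 14.9 to 17.0 CPM in normoxic and 25.5 to 26.6 CPM in hypoxic shControl, and from 9.51 to 11.1 and 14.5 to 15.6 CPM in shRIPOR3. CD3E, ITGAM and EMCN were at 0 in normoxic shControl, none of the 12 listed genes in normoxic shRIPOR3, EMCN alone in hypoxic shControl and CD3E alone in hypoxic shRIPOR3. The part of other cells in the CD22 difference was not tested. SCG2, a secretogranin of dense-core vesicles, had an interaction of 0.88 ± 0.12, METTL1, which methylates transfer RNA, of 0.86 ± 0.123, EEF2KMT, which methylates an elongation factor, of 0.86 ± 0.136, and SLC39A3, a zinc importer, of 0.79 ± 0.117. ID4, an inhibitor of DNA-binding factors, fell in shControl and rose in shRIPOR3 (0.88 ± 0.157). The other ID genes, ID1 to ID3, also had positive calls (0.38, 1.49 and 0.65), and ID1 and ID2 were picked out after their values were seen. The other called genes of the TGF-beta, BMP and ID list went the other way: 9 of its 28 genes had a negative call, among them INHBA (-0.46 ± 0.0683) and SMAD3 (-0.28 ± 0.0539), and the median was -0.15. The negative count was 5 without normoxic shRIPOR3 replicate 2.

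For 191 genes the hypoxia response was called in both lines with opposite signs and the interaction was called too (1.22% of genes tested): 112 rose in shControl and fell in shRIPOR3, and 79 did the reverse. MMP1, the interstitial collagenase, was at 1054, 1025 and 1056 CPM in normoxic and 1638, 1701 and 1696 CPM in hypoxic shControl. In shRIPOR3 it was at 3872, 3749 and 3829 CPM in normoxia and fell to 3206, 3148 and 3020. No groups overlapped, the lines were closer in hypoxia, and the interaction was -0.97 ± 0.0527 (edgeR adjusted p = 7.35e-12). SCG5, a secretory chaperone, had the same shape (-1.2 ± 0.107). So did SLC16A1, the lactate transporter MCT1 (-0.94 ± 0.19), and ZNF404, a zinc finger gene (-0.88 ± 0.156).

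TFPI, the inhibitor of the tissue factor pathway, diverged instead: from 20.6 ± 0.855 to 29.6 ± 1.05 CPM in shControl and from 13.6 ± 0.119 to 9.52 ± 0.382 in shRIPOR3 (-1.04 ± 0.0818). ARRDC3, an arrestin-domain protein that targets receptors for degradation, had no called difference between the lines in normoxia (edgeR adjusted p = 0.44) and an interaction of -0.96 ± 0.106. NOL6, a factor of small-subunit assembly, moved the other way. It was at 167, 158 and 164 CPM in normoxic and 113, 106 and 105 CPM in hypoxic shControl, and at 180, 188 and 186 and then 231, 219 and 229 CPM in shRIPOR3. It fell by 0.59 and rose by 0.29, an interaction of 0.89 ± 0.0543 (edgeR adjusted p = 5.54e-11). MRM1, which methylates mitochondrial ribosomal RNA, had one of 0.92 ± 0.167.

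**Figure D5:**
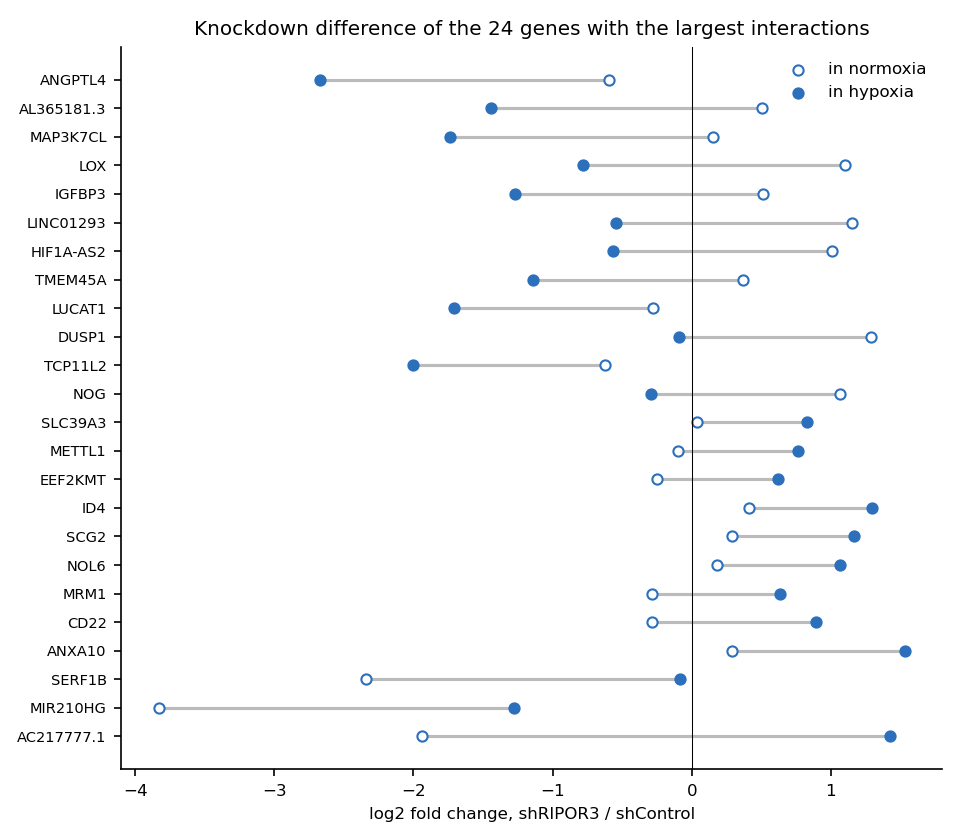
Log2 fold change of shRIPOR3 over shControl in normoxia (open) and hypoxia (filled) for the 24 genes that the naming rule takes for their interaction, which is the length of each grey line. LOX and NOG lie above 0 in normoxia and below 0 in hypoxia, ANGPTL4 and TCP11L2 lie furthest below 0 in hypoxia, and ANXA10 lies furthest above 0 there.

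The m6A machinery, named in the study's title, stood near the background. Of 21 writers, erasers and readers, 2 had a positive and 2 a negative call (19.0%), with a median of -0.01. METTL3, the catalytic subunit of the writer complex, fell from 70.7 ± 2.67 to 49.8 ± 1.9 CPM in shControl and from 76.7 ± 1.31 to 57.6 ± 0.696 in shRIPOR3, and its interaction of 0.10 ± 0.0564 did not pass the test (edgeR adjusted p = 0.23). It did when hypoxic shControl replicate 2 was left out (0.16, adjusted p = 0.043). IGF2BP3, a reader that binds modified transcripts, had a negative call (-0.40 ± 0.0584). Both counts ranged from 1 to 4 over 21 alternatives, with 4 positive calls without hypoxic shControl replicate 2 and 4 negative calls without hypoxic shRIPOR3 replicate 2.

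Calls depended on abundance. Below 1 CPM 3.38% of genes were called, from 1 to 10 CPM 13.3%, from 10 to 100 CPM 34.1% and above 100 CPM 39.3%, so scarce genes without a call are poorly resolved. The shares of all genes set beside the gene lists were not matched for abundance. Whether a list's share reflects the level of its members was not tested. Positive and negative calls numbered 18 and 83 below 1 CPM and 151 and 424 from 1 to 10 CPM. They numbered 1022 and 1107 from 10 to 100 CPM and 514 and 305 above 100 CPM. The median interaction was -0.15 below 1 CPM and 0.04 above 100 CPM.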

How the data were processed

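The authors deposited 1 table of raw read counts per gene symbol, with a column for each of the 12 libraries. GRCh38 and the tools STAR 2.5.3a, featureCounts and fastp 0.23.4 are listed in the submitters' processing notes. Annotation and strand setting are not given in the sources. A spreadsheet had turned 24 symbols into dates, and these rows were kept.

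Counts were fitted with edgeR 4.0.16 in R 4.3.3, with TMM factors, filterByExpr and 1 coefficient for each of the 4 groups. Contrasts were tested by quasi-likelihood F-tests with Benjamini-Hochberg adjustment over 15648 genes and a threshold of 0.05. The biological coefficient of variation was 3.74%. CPM are TMM-scaled. The script was tested on simulated counts.

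Named genes are RIPOR3, METTL3, HIF1A and EPAS1, the 12 largest interactions each way and the 8 largest with opposite responses (called in the full fit and all 12 leave-one-out fits, at least 5 CPM in the highest group), and up to 5 called members per list with the smallest p. Some further list members, among them P4HA2, FOSL1, ARNT and HIF1AN, are given outside this rule. They are not among the 212 named genes compared across alternatives. Members and lists were chosen with earlier results of these data known, so lists are described by counts and medians, without set tests. The result of 1 list is not reported here. Gene positions are from GENCODE 29 and promoters from RefSeq, the first listed per symbol.

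Alternatives were median-of-ratios, upper-quartile and no scaling, no filter, a 1 CPM filter, DESeq2 1.42.0, limma-voom 3.58.1, a replicate block, a 1.2-fold threshold, an adjusted p of 0.01, thinning and leaving out each library. Same-numbered libraries did not deviate together (18 pairs, median r 0.01, 1 above 0.1), so numbers were not used as pairs.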

Additional observations from a re-analysis of the deposited data

Results flagged for a closer look

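The test of the difference between the 2 hypoxia responses, edgeR's quasi-likelihood interaction test, found a difference in 3624 genes. In 1705 genes the log2 response was higher in shRIPOR3 than in shControl and in 1919 it was lower.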

How the results depend on the processing

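A test against a 1.2-fold change left 533 interaction calls (133 higher, 400 lower), and an adjusted p of 0.01 left 2185 (1024 higher, 1161 lower). Against 1.2-fold, 6277 genes were called for hypoxia in shControl (2870 lower) and 3987 in shRIPOR3 (2064 higher, 1923 lower). Without scaling factors 3163 genes fell in hypoxia in shRIPOR3. Leaving out 1 library at a time gave 2993 to 3730 interaction calls (1409 to 2219 higher, 1394 to 1853 lower), 9393 to 10251 for hypoxia in shControl (4635 to 5118 higher, 4754 to 5133 lower) and 7861 to 8788 in shRIPOR3 (3515 to 4442 higher, 4226 to 4814 lower). With a replicate block 3596 interactions were called, with DESeq2 3191 and with limma-voom 3594. The share of interaction calls that were higher was 47.0%, and 54.3% with median-of-ratios scaling. Over up to 21 alternatives per gene, without the 2 stricter criteria, 188 of 212 named genes lost no call, 24 lost one at least once, 2 gained one and none changed sign. For the gene lists the 2 stricter criteria were added after seeing the data. Against 1.2-fold, 11 negative calls were left for extracellular matrix, 8 for cholesterol synthesis and 7 for glycolysis. Ribosome biogenesis kept 6 positive calls. Only 1 hairpin against RIPOR3 was used, and genes below 1 CPM are poorly resolved.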

Other observations

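Clustered histone genes differed between the lines in their response. Most of their transcripts lack a poly(A) tail and are captured only in part by mRNA libraries. Of 14 tested, 5 had a positive and none a negative interaction call (35.7%), and the median response was -0.10 in shControl and 0.38 in shRIPOR3. HIST1H1C, a linker histone, was at 36.8 CPM in normoxic and 35.1 CPM in hypoxic shControl and rose from 78.9 to 102 CPM in shRIPOR3 (0.43 ± 0.0719, SE). HIST1H2AC had an interaction of 0.65 ± 0.128.

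Of 25 interferon-stimulated genes, 15 were lower in normoxic shRIPOR3 than in normoxic shControl, where 20.6% of all genes were, and 14 were lower in hypoxia, where 31.2% were. IFIT1, an antiviral RNA-binding protein, fell from 34.6 ± 2.27 to 16.2 ± 0.206 CPM in shControl and from 11.2 ± 0.709 to 7.89 ± 0.215 in shRIPOR3 (mean ± SD, n = 3; interaction 0.58 ± 0.0907). ISG20, an exonuclease, had an interaction of -1.03 ± 0.139. In the interaction 5 of the 25 were positive and 2 negative (28.0%), near the 23.2% of all genes, and the positive count was 3 without normoxic shControl replicate 1, normoxic shRIPOR3 replicate 3 or hypoxic shControl replicate 1. Among inflammatory genes TNFAIP3, an inhibitor of NF-kB, rose from 9.55 ± 0.952 to 22.7 ± 0.0614 CPM in shControl and was already at 21.8 ± 0.314 CPM in normoxic shRIPOR3 (-0.91 ± 0.0828). CSF1, a macrophage growth factor, fell in shControl and rose in shRIPOR3 (0.63 ± 0.0785).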
